A study of Mus musculus with 24 samples.

Results

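A set of 10 genes that make, recycle, clear or phosphorylate the coenzyme NAD was followed across liver and kidney of Nudt12 knockout and wild-type mice. They were taken by symbol from the 3 deposited tables: Nampt, Nmrk1, Nmnat1, Nmnat3, Naprt, Nadsyn1, Nnmt, Nadk, Nadk2 and Nnt. These 10 genes, of 50629 symbols, fill 12 of the 50765 rows of each table, because Nadk2 and Nnt have 2 rows each. All 12 rows passed the filter of a mean value of at least 1 in every comparison.

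NAD is rebuilt in mammals mostly from nicotinamide, which is released whenever sirtuins, poly(ADP-ribose) polymerases or CD38 consume NAD. Nicotinamide and nicotinamide riboside are salvaged through nicotinamide mononucleotide, while nicotinic acid enters through the Preiss-Handler route, and NAD kinases add a phosphate to make NADP. In mouse liver the clock activators CLOCK and BMAL1 are known to drive Nampt through E-boxes, so that the salvage enzyme is a textbook clock output. Nudt12 encodes a nudix hydrolase whose substrates are NADH, NAD and RNA that carries NAD as its cap.

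The knockout carried a 58 bp deletion in exon 6 of Nudt12 on both alleles (Nudt12-/-). It was made with Cas9 and a pair of guides in embryos of the B6D2F1/J hybrid, a cross of C57BL/6J and DBA/2J, and its founders were crossed to C57BL/6J mice from Janvier. A single mouse line was used. Liver and kidney came from mice of 3 to 4 months, with no zeitgeber time on their labels, as 3 wild-type and 3 knockout livers (the liver cohort) and 2 wild-type and 3 knockout kidneys. A separate time course used mice of 4 to 6 months that had spent 10 days in 12 h of light and 12 h of dark. Zeitgeber time (ZT) counts hours from lights on, and livers were collected at ZT0, ZT4, ZT8, ZT12, ZT16 and ZT20, 1 wild type and 1 knockout at each. The third wild-type kidney of the labels was not analysed here. The labels do not say which libraries share a litter or a cage, or whether cohort livers and kidneys came from the same mice. If they did, the organs are not independent sets. The p-values measure the spread between these samples only.

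Values are estimated counts per gene that the authors had normalized within each table. They summed to 25.09 to 27.77 M (1e+06) in kidney, 24.07 to 27.5 M in the liver cohort and 16.85 to 19.86 M in the time course. Nudt12 itself was 1158 ± 160 in wild-type and 226.0 ± 12.9 in knockout livers of the cohort (mean ± SD, n = 3 and 3), and the genotypes did not overlap in any of the 3 tables. Summed hepatocyte markers (12 of 12 found) ran from 1120270 to 2415400 in the livers and from 81403 to 97125 in kidney, and summed kidney tubule markers (12 of 12 found) from 801039 to 918967 in kidney and from 20.7 to 139 in the livers. A pair of wild-type libraries stood apart: mitochondrially encoded genes took 7.388% of wild-type liver 1, against 2.267 to 4.542% of the other cohort livers, and 16.06% of wild-type kidney 1, against 7.402 to 9.545% of the other kidneys. Most genotype differences in these tables are given with and without them.

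Clock gene values also stood apart between the genotypes of the young mice. Arntl, which encodes BMAL1, was 401 ± 144 in wild-type and 37.0 ± 17.2 in knockout livers of the cohort (log2 difference -3.43, adjusted p = 0.0857 in limma), and Dbp, a transcription factor gene driven by BMAL1, was 157 ± 211 and 1394 ± 170 (4.12, adjusted p = 0.258). At an unadjusted p under 0.05 stood 15 of 23 core clock genes in the cohort livers, 11 of 23 in kidney and 0 of 23 in the time course. Of all rows 7.99%, 5.4% and 5.99% did, and none of the core clock genes passed after adjustment. The part of this clock difference in the values of the NAD genes was not tested.

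In the build GRCm38 with GENCODE vM21, Nampt lies on chromosome 12 from 32819545 to 32853349 (plus strand), Nmrk1 on chromosome 19 from 18631950 to 18652428 (plus), and Nnmt on chromosome 9 from 48591877 to 48605153 (minus). Nmnat1 lies on chromosome 4 from 149467572 to 149485202 (minus) and Nmnat3 on chromosome 9 from 98287435 to 98420438 (plus). Naprt lies on chromosome 15 from 75890956 to 75894481 (minus), next to Eef1d on the same strand, which it overlaps, and Nadsyn1 on chromosome 7 from 143795584 to 143822849 (minus). Nadk lies on chromosome 4 from 155562378 to 155591001 (plus), Nadk2 on chromosome 15 from 9071260 to 9110891 (plus), and Nnt on chromosome 13 from 119335448 to 119408997 (minus). Reads in the overlaps of Nampt with the lincRNA Gdap10, Nmnat3 with the pseudogene Gm28530 and Naprt with Eef1d, all on the same strand, may be divided between the genes in a way the tables do not record.

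Promoter windows from RefSeq on GRCm38.p6 (250 bases before to 50 after a start) were found for 6 of the 10 genes, as 8 windows. The motifs searched, on both strands, were the E-box CACGTG, the D-box TTATGTAA and the RORE. The windows below are those of Nampt and Nmrk1, whose levels moved together over the day, and of Nadk, the only member with an E-box in a window; capitals mark that E-box.

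Nampt, chr12:32820085-32820384, plus strand: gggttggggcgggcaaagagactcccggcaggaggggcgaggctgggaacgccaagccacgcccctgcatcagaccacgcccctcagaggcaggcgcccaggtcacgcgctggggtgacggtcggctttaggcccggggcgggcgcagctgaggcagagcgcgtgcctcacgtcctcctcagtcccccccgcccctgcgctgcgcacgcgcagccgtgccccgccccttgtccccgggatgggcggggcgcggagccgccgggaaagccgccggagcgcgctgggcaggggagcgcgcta

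Nmrk1, chr19:18631766-18632065, plus strand: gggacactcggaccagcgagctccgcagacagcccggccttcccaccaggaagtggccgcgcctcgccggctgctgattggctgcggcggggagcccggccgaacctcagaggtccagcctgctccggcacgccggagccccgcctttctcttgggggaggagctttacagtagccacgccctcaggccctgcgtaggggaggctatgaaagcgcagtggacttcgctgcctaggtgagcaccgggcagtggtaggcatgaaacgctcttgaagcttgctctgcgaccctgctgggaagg

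Nadk, chr4:155563565-155563864, plus strand: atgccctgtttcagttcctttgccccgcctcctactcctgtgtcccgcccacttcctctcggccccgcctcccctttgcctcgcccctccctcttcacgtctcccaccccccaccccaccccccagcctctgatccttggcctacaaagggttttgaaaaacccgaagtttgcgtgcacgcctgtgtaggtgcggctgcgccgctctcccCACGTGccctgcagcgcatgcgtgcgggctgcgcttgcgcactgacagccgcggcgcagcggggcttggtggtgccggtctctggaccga

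The E-box of Nadk begins at position -40 from the start, and 7.15% of all 32851 promoter windows hold an E-box. No D-box, found in 0.938% of windows, and no RORE, found in 0.384%, was in the 8 windows of the NAD genes. These matches describe letters in short windows and say nothing of sites farther away, among them those through which Nampt is known to be driven. Naprt, Nnmt, Nadk2 and Nnt had no window in the table.

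Levels in kidney and liver differed most for Nnmt. This enzyme methylates nicotinamide so that it leaves the body. Scaled to counts per 1e+06 of the library sum (CPM) it ran from 25.8 to 148 CPM in the 6 livers of the cohort and from 0.607 to 1.60 in the 5 kidneys, a mean 83.3 times as high in the cohort livers; the 12 time course livers held 22.9 to 117 CPM. Nampt, which turns nicotinamide into nicotinamide mononucleotide and limits the rate of salvage, ran from 36.0 to 91.5 CPM in the cohort livers and from 144 to 207 in the kidneys (3.05-fold by mean), but from 42.9 to 172 CPM in the time course livers, which overlap with kidney. Nmrk1, the kinase that salvages nicotinamide riboside, was 9.83 to 31.4 CPM in liver and 48.7 to 78.8 in kidney (3.66-fold), and 9.80 to 27.1 in the time course livers.

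Nmnat3, taken to be the mitochondrial adenylyltransferase, was 3.28-fold and Nmnat1, its nuclear counterpart, 1.50-fold higher in kidney, in both cases without overlap. Nnt, the inner-membrane transhydrogenase that makes mitochondrial NADPH, was 4.06-fold higher in kidney as the sum of its rows. Nadk2, the mitochondrial NAD kinase, was 1.65-fold higher in liver as a sum, at 129 to 179 CPM against 81.3 to 99.8. For Naprt (1.86-fold higher in liver), Nadsyn1 (1.56-fold higher in kidney) and Nadk (101 to 151 CPM in liver, 142 to 169 in kidney) the ranges of the organs overlapped. Between kidney and the cohort livers 8 of the 12 rows did not overlap, against 59.3% of all rows. Of these, 6 were higher in kidney (52.1% of all rows were) and 2, Nnmt and the chromosome 15 row of Nadk2, higher in liver (7.25%), so the counts lie near those of all rows. The tables were normalized separately, so these levels are set on a common scale by the library sums and were not tested, and in whole organs fewer cells of a type and less RNA per cell cannot be told apart.

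Per kilobase of exon, the order of the genes also differed. Nnt has 2 gene models, and the sum of its rows was divided by the 7037 exon bases of the larger. The other model has 3339 bases, and a shorter length would give Nnt a higher level per kb, so its place depends on this choice. In wild-type cohort livers Nnmt led at 74.9 ± 31.6 CPM per kb (n = 3), followed by Nadk (30.6 ± 3.38), Nadk2 (26.0 ± 0.971), Naprt (22.5 ± 7.38) and Nampt (8.42 ± 1.89). Nadk, Nadk2 and Naprt overlapped with a neighbour in this order, and Nnmt and Nampt did not. Further down, Nnt, Nmnat1 and Nmrk1 overlapped in their order. Their levels, with Nadsyn1 above and Nmnat3 below, were 5.62 ± 0.747 (Nadsyn1), 4.33 ± 0.415 (Nnt), 3.88 ± 0.175 (Nmnat1), 3.22 ± 0.682 (Nmrk1) and 0.843 ± 0.166 (Nmnat3) CPM per kb. In wild-type livers of the time course Nnmt (43.7 ± 22.9, n = 6), Nadk2 (38.6 ± 4.16), Nadk (30.0 ± 4.75) and Nampt (19.0 ± 9.44) led, each overlapping with the next. In wild-type kidney Nadk (40.1 ± 3.02, n = 2) and Nampt (28.4 to 28.5) were highest, Nadk2, Nnt and Nmrk1 lay between 13.2 and 19.5, and Nnmt was last at 0.701 ± 0.446.

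**Figure D1:**
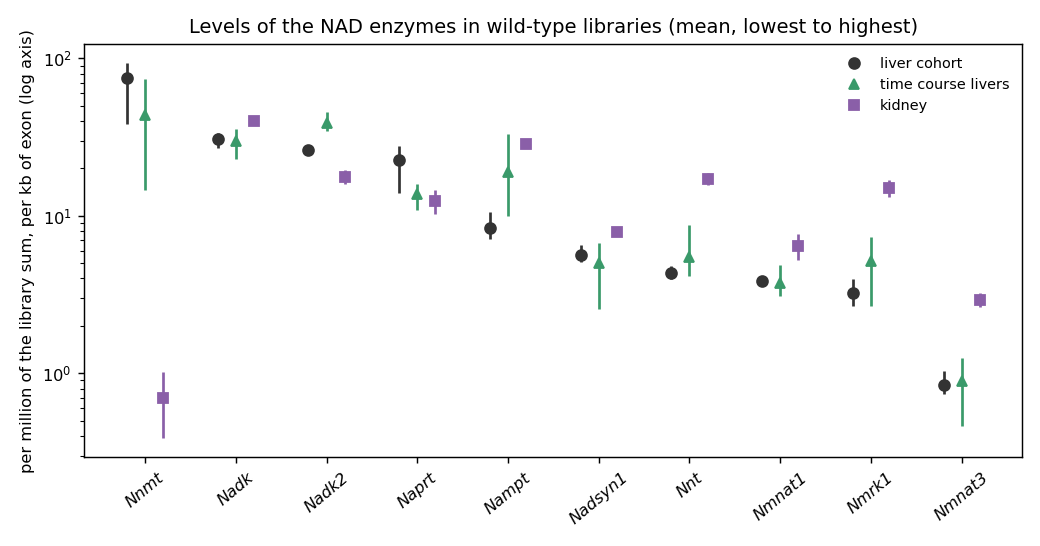
Level of each gene in wild-type libraries of the liver cohort (n = 3), the time course (n = 6) and kidney (n = 2), in CPM per kb of exon on a log axis; symbols are means and lines run from the lowest to the highest library. By mean, Nnmt is the highest of the 10 genes in both liver sets and the lowest in kidney. Nadk, Nnt, Nmrk1, Nadsyn1, Nmnat1 and Nmnat3 lie above all wild-type liver libraries in kidney, while Nampt overlaps with the time course (9.93 to 32.9). Exon lengths join all transcripts of a gene, and Nnt is drawn per kb of its larger gene model, of 7037 bases.

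Over the day, 6 of the 10 genes passed the test for a 24 h rhythm in the time course (limma with a cosine and a sine over the 12 libraries, adjusted p under 0.05), against 5.8% of the 18702 rows tested. The same 6 rows stood at an unadjusted p under 0.05, as 21% of all rows did. They were Nnmt, Nmrk1, Nampt, Naprt, Nadsyn1 and Nadk. The median amplitude of the 12 rows was 0.33 on the log2 scale, against 0.29 over all rows and 1.58 over the core clock list. Of these 6, Nampt, Nmrk1, Nnmt, Naprt and Nadk peaked after lights off, and Nadsyn1 in the light. Both ZT4 libraries stood apart in summed skeletal muscle markers (7 of 7 found), at 588 in the wild type against 924 in the knockout, against 4.25 to 113 in the other 10 libraries. Without ZT4 the amplitudes were 0.86 for Nnmt (adjusted p = 0.00415), 0.54 for Nmrk1 (0.0122), 0.41 for Naprt (0.0256) and 0.37 for Nadk (0.0395), all still past the threshold, and 0.84 for Nampt (0.0541) and 0.50 for Nadsyn1 (0.0684), which were not.

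Nampt rose from the light into the dark phase. Its wild-type values at ZT0, ZT4, ZT8, ZT12, ZT16 and ZT20 were 1334, 846, 1049, 2723, 3130.1 and 1672. The knockout values at the same times were 777, 821, 1814, 3273, 1878 and 1312. The wild type was lowest at ZT4 and highest at ZT16, and the knockout was lowest at ZT0 and highest at ZT12. The fitted amplitude was 0.89 on the log2 scale (SE 0.13), a 3.45-fold change from trough to peak with the peak at ZT14.1 (adjusted p = 0.00619). This call did not hold with time as a factor of 6 levels (adjusted p = 0.0895) or without ZT4 (0.0541) or ZT12 (0.0502).

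Nmrk1 followed the same course in both genotypes. Its wild-type values from ZT0 to ZT20 were 254, 165, 372, 466, 510.5 and 358. The knockout values were 250.0, 180.3, 398, 449.6, 536 and 354. Both genotypes were lowest at ZT4 and highest at ZT16, and at each time the knockout was between 0.964 and 1.09 times the wild type. The amplitude was 0.71 (SE 0.09), 2.69-fold from trough to peak, with the peak at ZT14.5 (adjusted p = 0.00263).

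Nnmt had an amplitude close to that of Nampt. The wild-type values from ZT0 to ZT20 were 755, 385, 921, 1655, 2209 and 1855. The knockout values were 1169, 834, 946, 1511, 2273 and 1899.5. Levels were lowest at ZT4 and highest at ZT16 in both genotypes, and the knockout had 1.55 times the wild-type value at ZT0 and 2.17 times at ZT4. At ZT8, ZT12, ZT16 and ZT20 it had 1.03, 0.913, 1.03 and 1.02 times. Adipocytes are a cell type known to express Nnmt. Their summed markers were 339 in the knockout against 128 in the wild type at ZT0 and 162 against 109 at ZT4. From ZT8 to ZT20 the sums were 102, 264, 156 and 292 in the knockout against 160, 151, 144 and 104 in the wild type. All 7 of these markers were higher in the time course knockouts (median log2 difference 0.90), and their part in the Nnmt values was not tested. The amplitude was 0.96 (SE 0.11), 3.76-fold, with the peak at ZT16.3 (adjusted p = 0.00113). Rhythm calls of Nmrk1 and Nnmt held under all 15 alternatives.

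In the Preiss-Handler route the enzymes at its start and end ran opposite to each other. Naprt, which joins nicotinic acid to a phosphoribosyl group, was 569, 606, 472, 523, 669 and 733 in the wild type from ZT0 to ZT20. In the knockout it was 674, 522, 452, 491, 798 and 819. It was lowest at ZT8 and highest at ZT20 in both genotypes (amplitude 0.36, SE 0.07, 1.65-fold, peak at ZT19.7, adjusted p = 0.0186). Nadsyn1, the synthetase that amidates the last intermediate to NAD, was 305, 376, 326, 384, 275 and 167 in the wild type against 207, 316, 433, 289, 219 and 189 in the knockout. It was lowest at ZT20 in both genotypes and highest at ZT12 in the wild type but ZT8 in the knockout (amplitude 0.51, SE 0.09, 2.03-fold, peak at ZT7.81, adjusted p = 0.0192). Across the 12 libraries, which share their times, the log2 values of Naprt and Nadsyn1 had a Pearson r of -0.83, and those of Nampt and Nmrk1 an r of 0.83.

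Nadk, the cytosolic NAD kinase, had an amplitude close to that of Naprt. Its wild-type values were 1784, 1817, 1605, 2342, 2372 and 2611. Its knockout values were 1910.3, 1798, 1461, 1722, 2338 and 2173. Both genotypes were lowest at ZT8 (amplitude 0.29, SE 0.06, 1.50-fold, peak at ZT18, adjusted p = 0.0354). The calls of Naprt, Nadsyn1 and Nadk did not hold with time as a factor (adjusted p = 0.137, 0.187 and 0.173) or with no trend in the prior variance (0.0678, 0.0569 and 0.126). Each of the 3 was lost under 6 of 15 alternatives, with adjusted p-values from 0.0132 to 0.148 for Naprt, 0.0161 to 0.187 for Nadsyn1 and 0.0288 to 0.208 for Nadk.

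The other 4 genes did not pass the rhythm test. Nmnat3 had an amplitude of 0.46 (SE 0.19, adjusted p = 0.304) on values that ran from 45.3 to 113 in the wild type and from 38.7 to 117 in the knockout. Nmnat1 had an amplitude of 0.14 (SE 0.09, adjusted p = 0.616), with all 12 libraries between 151 and 249. The summed Nnt rows had an amplitude of 0.21 (SE 0.11, adjusted p = 0.449) and the summed Nadk2 rows of 0.02 (SE 0.06, adjusted p = 0.965). Summed Nadk2 stayed between 2784 and 3984 over the whole day.

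**Figure D2:**
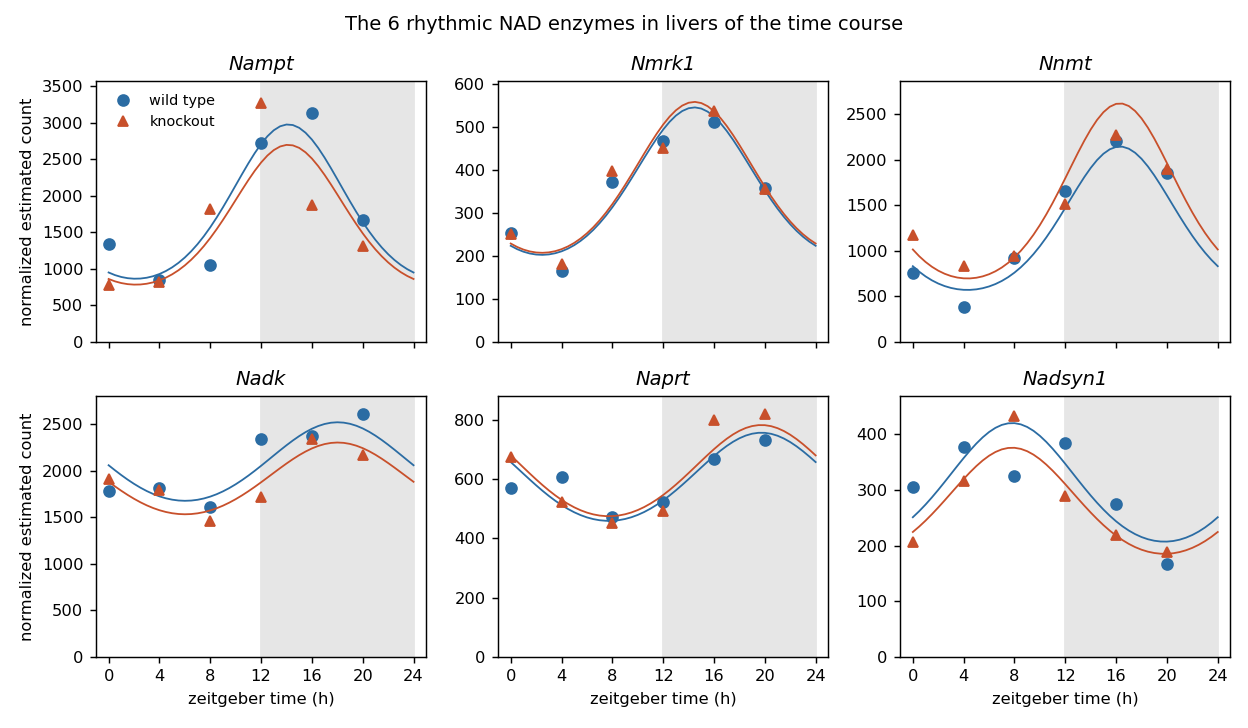
Normalized estimated counts of the 6 genes with a 24 h rhythm by zeitgeber time; each symbol is 1 library, lines are the cosine fitted with a shared phase and amplitude and a level per genotype, and grey marks the dark phase. Nampt, Nmrk1 and Nnmt peak between ZT14.1 and ZT16.3, Nadk and Naprt between ZT18 and ZT19.7, and Nadsyn1 at ZT7.81.

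Whether the rhythm itself differed between genotypes was tested by the interaction of the cosine and sine with genotype. None of the 12 rows passed, as none of all 18702 rows did (0%). At an unadjusted p under 0.05 stood 3 of the 12 rows, against 4.78% of all rows: Nampt, Nnmt and the longer Nnt row, each with an adjusted p of 0.999. Fitted alone, Nampt peaked at ZT15.6 in the wild type but ZT12.8 in the knockout with amplitudes of 0.92 and 0.99. The knockout had 1.73 times the wild-type Nampt value at ZT8 and 0.6 times at ZT16, and without ZT8 or with no trend in the prior variance the gene no longer stood under 0.05. Fitted alone, Nnmt had an amplitude of 1.20 in the wild type against 0.73 in the knockout, and the knockout value lay nearest the wild type at ZT16, ZT20 and ZT8. Without ZT0, ZT4 or ZT12, or with no trend in the prior variance, Nnmt no longer stood under 0.05. Each of these values rests on 1 library per genotype and time.

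Averaged over the 6 times, no row differed between genotypes past the threshold (0 of 12, against 0.00535% of all rows). The median log2 difference of the 12 rows was -0.13, against 0.00 over all rows, with 4 rows higher and 8 lower. For Nmrk1 the difference was 0.03 (95% confidence interval -0.15 to 0.22), for Nampt -0.14 (-0.58 to 0.30) and for Nnmt 0.29 (-0.07 to 0.65). No row lay on the same side of the wild type at all 6 times, which 3.46% of all rows did. The longer Nnt row alone had an unadjusted p under 0.05 (5.99% of all rows did), and it is described with the other Nnt values.

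In the liver cohort none of the 12 rows passed the threshold of limma (3 of 19088 rows, or 0.0157%, did). Nmrk1 and Nnmt, the pair with the smallest p, had opposite signs, and both are below 0.05 in the authors' deposited table. At an unadjusted p under 0.05 stood 5 of the 12 rows, against 7.99% of all rows, and 10 of 12 rows were higher in the knockout (median log2 difference 0.20, against 0.00 over all rows). The groups did not overlap for 3 rows, those of Nmrk1, Nadk2 and the longer Nnt row, against 13.9% of all rows; all 3 were higher in the knockout, as were 7.07% of all rows.

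Among the salvage enzymes, Nmrk1 was 376, 267 and 270.3 in the 3 wild-type and 767, 523 and 494 in the 3 knockout livers. Every knockout lay above every wild type, at 1.94-fold on the log2(value + 1) scale (log2 difference 0.95, SE 0.23, adjusted p = 0.374). The authors' deposited table gives a log2 fold change of 0.79 with an adjusted p of 0.0292 for Nmrk1. Deposited fold changes and the log2 differences given here are not like measures. In the same livers 0.22 is deposited for Nampt and 0.081 for the longer Nnt row, against 0.64 and 1.44 here. Nampt was 1373, 866 and 1049 in the wild type against 2236, 1343 and 1580.4 in the knockout. The highest wild type, replicate 1, lay above the lowest knockout (log2 difference 0.64, SE 0.24, adjusted p = 0.586). Without wild-type liver 1 the differences were 1.12 for Nmrk1 (adjusted p = 0.17) and 0.82 for Nampt (0.301).

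Nnmt had the opposite sign, with 1553, 3557 and 4007 in the wild type against 1756, 877 and 629 in the knockout. Wild-type liver 1 lay within the knockout range, and the other 2 wild types lay above all knockouts. The log2 difference was -1.50 (SE 0.44, adjusted p = 0.479), and -1.93 without wild-type liver 1 (adjusted p = 0.161). In the authors' deposited table Nnmt has a log2 fold change of -1.18 and an adjusted p of 0.0392, and these 2 of 12 rows stand below 0.05 there, against 1.38% of the rows with a deposited adjusted p. Nmrk1 and Nnmt both cycle in the time course, and the young mice have no labelled collection time. Among the cohort wild types, Arntl was 237 in liver 1 against 458 and 507 in the others. Dbp was 401 in liver 1 against 32.5 and 36.9. The part of the clock or of collection time in the Nmrk1 and Nnmt values was not tested. Summed adipocyte markers (7 of 7 found, Lep at 0 in all wild types) were 157 to 188 in the wild-type and 116 to 141 in the knockout livers, although 4 of the 5 markers tested were higher in the knockout and 1 lower (median log2 difference 0.67). Summed Kupffer cell and macrophage markers (11 of 11 found, none at 0) were 9055 to 14240 and 8967 to 10702. Their part in the Nnmt values was not tested.

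The Preiss-Handler enzymes overlapped between genotypes in the liver cohort. Naprt was 845, 1563 and 1659 in the wild type, again with replicate 1 apart, and 1369.8, 1350.1 and 1284 in the knockout. Its log2 difference was 0.04 (SE 0.25, adjusted p = 0.978) with and -0.27 without wild-type liver 1. Nadsyn1 was 549.6, 419 and 466 in the wild type against 831, 535 and 447 in the knockout (log2 difference 0.30, 95% confidence interval -0.27 to 0.86, adjusted p = 0.777). This difference was 0.40 without wild-type liver 1 and ran from 0.042 to 0.49 with each library left out, the lowest without knockout liver 1.

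Of the enzymes that follow NAD synthesis, Nadk2 (its chromosome 15 row) was 3135, 2794 and 3292 in the wild type against 3664, 4358 and 3939 in the knockout. The groups did not overlap, and the log2 difference was 0.37 (SE 0.14, adjusted p = 0.587), or 0.35 for the sum of both rows. Without wild-type liver 1 these were 0.39 and 0.38. Nadk was 2588, 2812 and 3464 in the wild type against 3699, 3279 and 2836 in the knockout, with overlap (log2 difference 0.15, 95% confidence interval -0.24 to 0.54, and 0.06 without wild-type liver 1). The Nmnat enzymes, which join the mononucleotide to AMP, also overlapped, Nmnat1 with a log2 difference of 0.11 (-0.29 to 0.51) and Nmnat3 with 0.26 (-0.27 to 0.78). Without wild-type liver 1 they were 0.083 and 0.17.

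**Figure D3:**
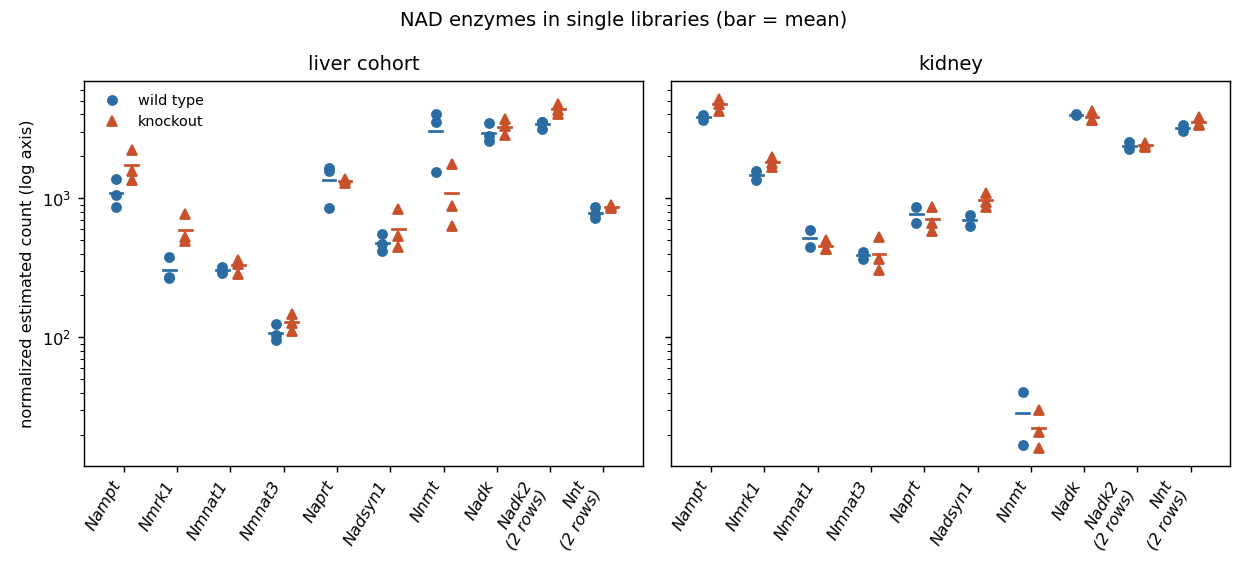
Normalized estimated counts of the 10 genes in each library of the liver cohort and of kidney, on a log axis; circles are wild-type and triangles knockout libraries, and bars are means. In the liver cohort every Nmrk1 knockout (494 to 767) lies above every wild type (267 to 376), and Nnmt wild types (1553 to 4007) overlap with knockouts (629 to 1756) through 1 library.

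In kidney none of the 12 rows passed the threshold either (0.0045% of all rows did). Nor did any have an adjusted p under 0.05 in the authors' deposited table for kidney (0.489% of rows there) or for the time course (0.0363%), where the lowest were 0.432 for Nadsyn1 and 0.388 for the longer Nnt row. At an unadjusted p under 0.05 stood Nadsyn1, Nampt and Nmrk1, 3 of the 12 rows against 5.4% of all rows. Of the 12 rows the same 3 had groups that did not overlap, all higher in the knockout, against 20.5% of all rows in either direction and 9.9% higher.

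Nadsyn1 was 761 and 629 in the 2 wild-type and 864, 1093 and 942 in the 3 knockout kidneys (log2 difference 0.47, SE 0.15, adjusted p = 0.878). Nampt was 3986 and 3650.1 in the wild type against 5209, 4729 and 4267 in the knockout (0.31, SE 0.12, adjusted p = 0.898). Nmrk1 was 1352 and 1582 in the wild type against 1989, 1667 and 1790.4 in the knockout (0.31, SE 0.13, adjusted p = 0.899). Without wild-type kidney 1, the library rich in mitochondrial RNA, the log2 differences were 0.61 for Nadsyn1, 0.37 for Nampt and 0.19 for Nmrk1, and without wild-type kidney 2 they were 0.34, 0.24 and 0.42. With both tissues in 1 limma fit none of the 3 stood under 0.05 (unadjusted p = 0.0798, 0.21 and 0.187). As in liver, Arntl was lower in these knockouts (43.1 ± 20.9 against 293 ± 111) and Dbp higher (2017 ± 234 against 719 ± 460), with adjusted p = 0.42 and 0.703. The wild types also differed, with Arntl at 215 and Dbp at 1044 in kidney 1 against 372 and 393 in kidney 2. Summed B and plasma cell markers (6 of 6 found, none at 0) were 203 to 634 in the wild-type and 116 to 188 in the knockout kidneys, and their part in these values was not tested.

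Nnmt was low in kidney, with 16.9 and 40.6 in the wild type against 29.9, 21.0 and 15.9 in the knockout, and its interval was wide (log2 difference -0.27, -1.43 to 0.89, and -0.88 without wild-type kidney 1). Nadk, at 3952 and 4012 against 3659, 3633 and 4239, had a log2 difference of -0.05 (-0.31 to 0.20, and -0.066 without wild-type kidney 1). The remaining kidney rows overlapped between genotypes, with log2 differences from -0.16 (Nmnat1) to 0.35 (the longer Nnt row). Without wild-type kidney 1 the longer Nnt row was at -0.10, Nmnat1 at -0.36, Naprt at -0.31, Nmnat3 at -0.076 and the chromosome 15 row of Nadk2 at -0.14.

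**Figure D4:**
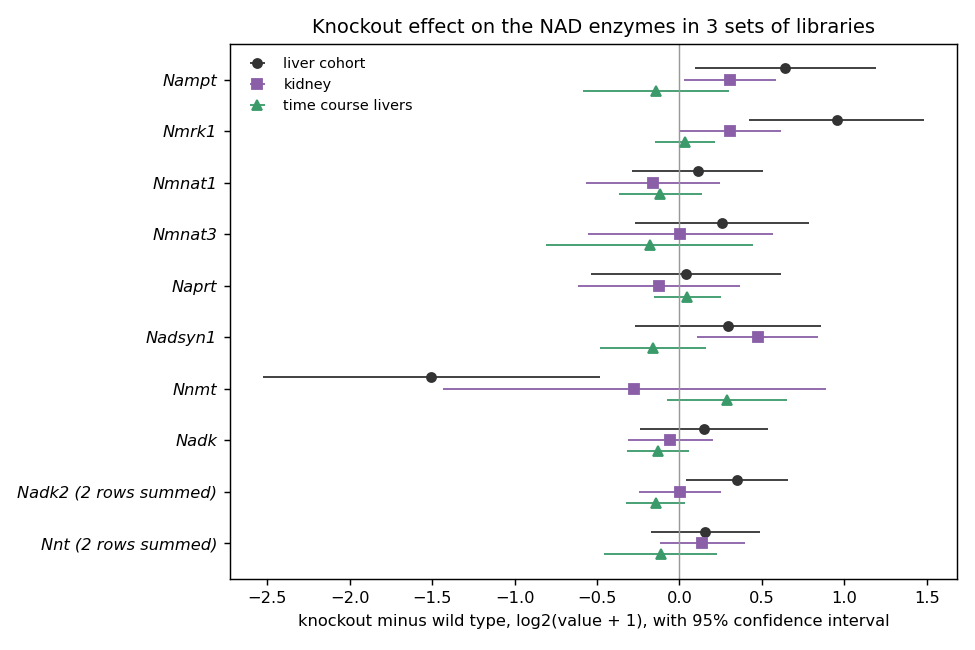
Knockout minus wild type for each gene on the scale of log2(value + 1), with 95% confidence intervals from limma, in the liver cohort (3 and 3 libraries), kidney (2 and 3) and the time course (6 and 6); Nadk2 and Nnt are sums of their rows. In the liver cohort Nmrk1 (0.95) and Nnmt (-1.50) lie farthest from 0, and in the time course the same genes are at 0.03 and 0.29.

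The knockout effects were then compared between sets of libraries, in fits that took every library as a separate mouse. Between kidney and the liver cohort none of the 12 rows differed past the threshold (0.00463% of all rows did), and 1 row, that of Nadk2 on chromosome 15, stood at an unadjusted p under 0.05, against 4.88% of all rows (difference -0.42, adjusted p = 0.998). Between the time course and the liver cohort the count was also 0 of 12 (0.0369% of all rows passed). At an unadjusted p under 0.05 stood 5 rows, against 10.2% of all rows. The difference was -0.92 for Nmrk1 (SE 0.22, adjusted p = 0.167) and 1.79 for Nnmt (SE 0.48, adjusted p = 0.21). Without wild-type liver 1 the differences were -1.08 and 2.22, and both then passed (adjusted p = 0.0398 each). Leaving out that library also raised the count over all rows, from 7 to 126. The other rows under 0.05 were those of Nadk2 on chromosome 15 (-0.51), Nampt (-0.78) and the longer Nnt row (-2.46), with adjusted p-values from 0.167 to 0.464. The sets differ in age and in whether a collection time is labelled, which cannot be told apart.

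Nnt needs its rows read together. The build GRCm38 is that of C57BL/6J, a substrain known to carry a deletion of several Nnt exons, while DBA/2J is known to carry the intact gene. Which Nnt allele the Janvier mice of the cross carried is not on the labels. GENCODE gives Nnt a gene model with 5 transcripts (ENSMUSG00000025453.18, the longer row) and a model with 1 transcript (ENSMUSG00000116207.1) inside it on the same strand. All 3309 stretches of 31 bases of the second model also occur in the first, which has 3710 others, so these stretches do not tell its reads from those of the first.

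The division between the rows varied from library to library. In the liver cohort the longer row was 72.1, 43.9 and 182 in the wild type against 219.5, 295 and 184 in the knockout, with no overlap (log2 difference 1.44, SE 0.48, adjusted p = 0.556). It was 1.34 without wild-type liver 1 and ran from 0.99 to 2.00 with each library left out. In the time course the direction was the opposite, with wild-type values of 338, 272, 321, 400.3, 203 and 242 and knockout values of 196, 83.6, 77.7, 174, 274 and 135 from ZT0 to ZT20 (-1.02, SE 0.28, adjusted p = 0.761). The knockout was lower at 5 of the 6 times, ZT16 being the exception.

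Summed over both rows, Nnt was 862, 717 and 767 in wild-type and 844, 892 and 871 in knockout cohort livers (log2 difference 0.16, 95% confidence interval -0.17 to 0.49, adjusted p = 0.803), and the difference was 0.23 without wild-type liver 1. In kidney the sums were 3064 and 3340.4 against 3835, 3397 and 3355 (0.14, -0.12 to 0.40, and 0.076 without wild-type kidney 1). These sums did not overlap and were higher in every knockout, as 9.9% of all rows were. In the time course they averaged 719 ± 231 in the wild type against 645 ± 83.1 in the knockout (-0.11, -0.46 to 0.23). The longer row took 6.119 to 23.76% of the sum in wild-type and 21.15 to 33.08% in knockout livers of the cohort, and 32.05 to 58.73% and 13.03 to 34.5% in the time course. Neither the strain of each mouse at this locus nor the assignment of reads to the rows was tested.

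**Figure D5:**
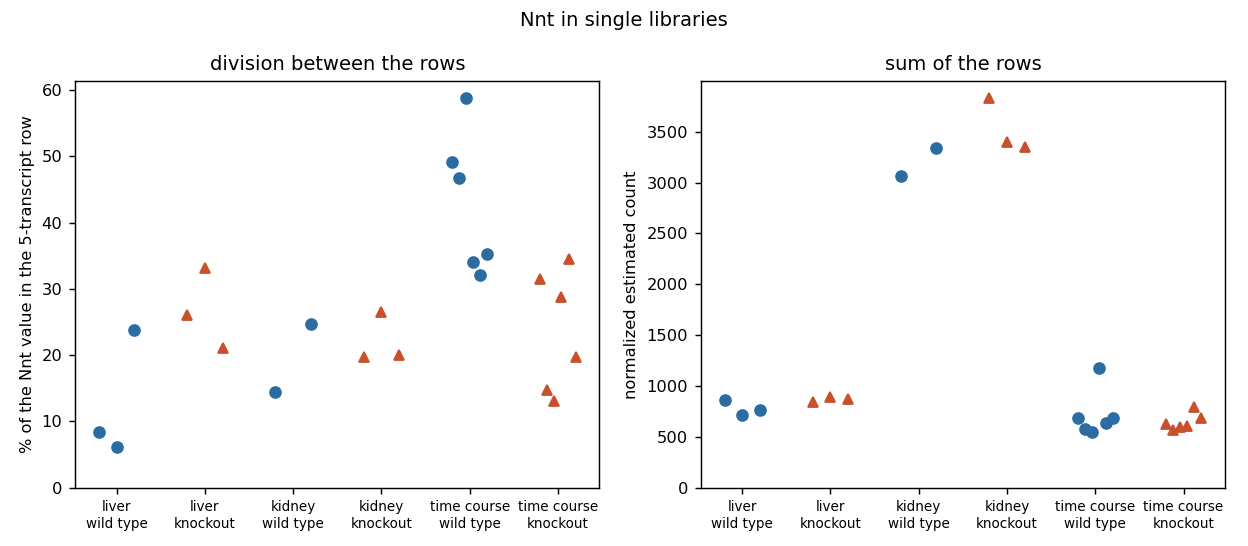
Left, the percentage of the summed Nnt value held by the row with 5 transcripts; right, the sum of both Nnt rows as normalized estimated counts; each symbol is 1 library, circles wild type and triangles knockout. The share ranges from 6.119 to 58.73% over all libraries, while the sums of wild type and knockout overlap in the liver cohort and the time course. In kidney the sums do not overlap, at 3064 and 3340.4 in the wild type against 3355 to 3835 in the knockout.

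The second Nadk2 row belongs to the patch sequence MG4288 of the genome, and the chromosome 15 row held 82.74 to 92.81% of their sum. The second row did not pass in any comparison. With both rows summed, Nadk2 differed between genotypes by 0.00 in kidney (-0.25 to 0.25) and -0.15 in the time course (-0.33 to 0.04).

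Genes whose log2 values followed those of the rhythmic members most closely over the 12 time course libraries were ranked by Pearson r among 8556 genes with a mean of at least 100, as a description with times and libraries in common. Nearest to Nampt were Hspa9 (r = 0.94), Maco1 (0.93) and Ak4 (0.93), and nearest to Nmrk1 were Pex26 (0.97), Trib1 (0.93) and Gm14403 (0.93). Nnmt was followed most closely by Fh1 (0.93), Tspan4 (0.92) and the clock repressor gene Per2 (0.92). The first neighbour of Naprt was Atp2a2 (0.95), that of Nadsyn1 was Stx17 (0.93) and that of Nadk was Zfyve1 (0.91).

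The rest of NAD metabolism was counted from lists. No gene of the lists of other salvage and transport genes (11 to 14 rows tested), the kynurenine route from tryptophan (11 or 12), NAD consumers (20), NADPH regeneration (13) or the methyl donor partners of Nnmt (13) passed the genotype test in liver, kidney or the time course. Rhythms passed for 2 of 11 other salvage genes, 4 of 11 kynurenine genes, 2 of 20 NAD consumers, 0 of 13 genes of NADPH regeneration and 4 of 13 methyl donor partners, against the 5.8% of all rows. Pnp, which splits nucleosides including nicotinamide riboside, peaked at ZT22.6 (amplitude 0.82, adjusted p = 0.000793). Acmsd, which diverts the kynurenine route away from NAD, peaked at ZT20.3 (1.30, adjusted p = 0.00239). Ahcy, which removes the S-adenosylhomocysteine that Nnmt and other methyltransferases leave, peaked at ZT17, close to Nnmt at ZT16.3 (0.48, adjusted p = 0.0023). Sirt3, the mitochondrial deacetylase that uses NAD, peaked at ZT11.6 (0.26, adjusted p = 0.0307).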

How the data were processed

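RNA libraries of liver and kidney were compared between genotypes. The authors deposited normalized estimated counts per gene, a signal that is never negative, and, per the file headers, log2 fold changes and adjusted p-values of knockout against wild type, whose computation no source used here gives. The submitters' processing notes name DESeq, DESeq2 1.24.0, Salmon 0.12.0, GRCm38 and R 3.6.0, without their roles. Division by the commonest low value of a library gave whole numbers for 11.85 to 22.79% of its low values (within 1e-04), so reads were not recovered and no count test was run.

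Groups came from the labels. Tests were run in R 4.3.3 with limma 3.58.1 on log2(value + 1), over rows with a mean of at least 1, with a trend in the prior variance, two-sided, with Benjamini-Hochberg adjustment over all rows and a threshold of 0.05. All p-values are from limma except those credited to the authors' deposited table. Fold changes on this scale understate low genes. Each main test of genotype or rhythm used libraries of 1 table. Effects of different tables were compared by the interaction of genotype with tissue or cohort, in 1 fit over both tables. The SEs and p-values of these interactions pool the spread of both tables. The time course fit had time as a factor of 6 levels, the replicate block, because labels give both genotypes the same 6 collection times; other replicate numbers follow accession order and pair nothing. The rhythm model held genotype, a cosine and a sine with a period of 24 h, and amplitudes are the distance from mean to peak. The scripts were tested on simulated data.

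The 10 genes and all gene lists were chosen with earlier results of these data known. The text names all 10 genes, up to 4 genes of a list with the smallest p, Nudt12, Arntl, Dbp and the closest-correlated genes of each rhythmic member. Alternatives were pseudocounts of 0.1 and 5, no filter or a mean of at least 10, rescaling by median ratios, no trend, a joint fit of the tissues, the time course without its block, time as a factor, rhythm without genotype, and each library or time left out; summing rows with the same symbol was chosen after seeing the data.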

Additional observations from a re-analysis of the deposited data

Results flagged for a closer look

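In a group of 6 libraries, 1 value of the NAD genes stood far from the rest. The summed Nnt rows of the wild-type time course were highest at ZT12, at 1175.6 normalized estimated counts, and the gap to the next library was 0.776 of the whole range of the group. Of 28 groups looked at in this way 1 was flagged. Chance flags about 1 in 20 independent groups of replicates. The flagged group holds 6 collection times and is a sum of rows also looked at, so that rate is only a rough guide. Without ZT12 the knockout difference of summed Nnt in the time course was 0.052 on the log2 scale, against -0.11 with it, and neither passed the test. In that library summed skeletal muscle markers were 12.1, within the 5.13 to 588 of its group, and mitochondrially encoded genes took 12.3%, within 8.538 to 13.66%.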

How the results depend on the processing

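The threshold calls over all rows were few in the genotype comparisons and moved with the settings. In liver 3 rows passed, against 1 with a pseudocount of 0.1, 8 with no filter, 1 with a mean of at least 10, 59 with both tissues in 1 fit and 0 to 38 with a library left out (38 without wild-type liver 1). In kidney 1 row passed, against 2 with a pseudocount of 0.1 or both tissues in 1 fit, 0 with no filter, a mean of at least 10 or no trend, and 0 to 2 with a library left out. In the time course 1 row passed with the replicate block by time and 1 without the block, which changed no call of a member, 0 with no trend, and 0 to 1 with a time left out. The count of the 24 h rhythm in the time course was 1085, against 584 with no trend, 354 with time as a factor and 475 to 674 with a time left out. The rhythm difference had 0 calls throughout (894 rows at an unadjusted p under 0.05). The kidney minus liver effect had 1 call, against 5 with a pseudocount of 0.1, 2 with no trend and 0 to 9 with a library left out (9 without wild-type kidney 2); the time course minus liver effect had 7, against 21 with a mean of at least 10, 0 with no trend and 0 to 126 with a library left out (126 without wild-type liver 1). Over the 12 rows and 2 sums, 1330 values kept their direction and side of the threshold, 21 rhythm calls were lost, 2 differences between time course and liver (Nmrk1 and Nnmt) passed without wild-type liver 1, and 33 values, none called, changed sign. Those that changed sign with a library left out had these ranges of log2 difference. In liver they were -0.27 to 0.22 (Naprt), -0.094 to 0.26 (Nadk2, ENSMUSG00000111527.2) and -0.20 to 0.018 (Nnt, ENSMUSG00000116207.1). In kidney they were -0.14 to 0.051 (Nadk2, ENSMUSG00000022253.15), -0.079 to 0.086 (Nadk2 summed), -0.31 to 0.061 (Naprt), -0.10 to 0.80 (Nnt, ENSMUSG00000025453.18), -0.36 to 0.041 (Nmnat1), -0.88 to 0.34 (Nnmt) and -0.21 to 0.17 (Nmnat3). In the time course they were -0.46 to 0.0061 (Nmnat3) and -0.20 to 0.052 (Nnt summed). For kidney minus liver they were -0.35 to 0.15 (Naprt), -0.013 to 0.43 (Nadsyn1) and -0.090 to 0.045 (Nnt summed), and for time course minus liver -0.17 to 0.32 (Naprt). With rows of 1 symbol summed, Nnt (ENSMUSG00000116207.1) took the values 0.16 in liver, -0.11 in the time course, -0.017 for kidney minus liver and -0.27 for time course minus liver, Nadk2 (ENSMUSG00000022253.15) 0.0036 in kidney and Nadk2 (ENSMUSG00000111527.2) -0.34 for kidney minus liver. The cause of these shifts was not tested. Limits are 2 wild-type kidneys, 1 library per genotype and time, no zeitgeber label on the young mice, and low values for Nnmt in kidney and for Nmnat3. Read depth is not known. Division of each library sum by its commonest low value gives 12.5 to 28.6 M, a rough guide only. Most low values were not whole multiples of that value.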

Other observations

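Other genes of NAD and methyl metabolism gave unadjusted p-values under 0.05 in the liver cohort without passing after adjustment, in 2 of 12 other salvage genes, 2 of 11 kynurenine genes, 3 of 20 NAD consumers, 0 of 13 genes of NADPH regeneration and 2 of 13 methyl donor partners, against 7.99% of all rows. They include Gamt, which makes creatine with a methyl group from S-adenosylmethionine, at 1455 ± 171 in wild-type and 2487 ± 275 in knockout livers (n = 3 and 3, log2 difference 0.77, adjusted p = 0.255), and Mat2b, a regulator of S-adenosylmethionine synthesis (0.47, adjusted p = 0.572). Acmsd and Kynu of the kynurenine route had log2 differences of -0.98 and -0.45 (adjusted p = 0.578 and 0.582). Among NAD consumers the differences were 0.53 for Sirt3, -0.77 for Tnks and -0.66 for Parp2 (adjusted p = 0.53, 0.429 and 0.578). Pnp2, a close copy of the nucleoside phosphorylase gene Pnp with which reads may be divided, was 40.6 ± 3.18 in wild-type and 14.3 ± 2.40 in knockout livers (-1.45, adjusted p = 0.34).

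In the time course Bhmt, which passes a methyl group from betaine to homocysteine, peaked at ZT23.6 (adjusted p = 0.00469) and Cbs, which draws homocysteine into cysteine synthesis, at ZT3.73 (adjusted p = 0.0114), whereas Mat1a, the liver enzyme that makes S-adenosylmethionine, peaked at ZT15.4 (adjusted p = 0.0496). Tdo2, the first enzyme of the kynurenine route in liver, peaked at ZT9.73 (adjusted p = 0.0339), and Kyat3 and Afmid of the same route at ZT19 and ZT18.8 (adjusted p = 0.0243 and 0.0398).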
